A study of Drosophila melanogaster with 2 samples.

Results

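Binding of Eip93F near genes that drive the cell cycle and cell growth in Drosophila melanogaster is described for 10 regulators: CycA, CycB, CycD, CycE, stg, E2f1, dap, fzr, Cdk1 and Myc. The genes were listed by function, with earlier results of these data known, so shares beside those of other genes are descriptions. All summits of reproducible peaks in the span of each gene or within 5000 bp of it were taken. Positions are on the genome build dm6, with the Ensembl annotation of the same assembly. All 10 genes were found among 13968 protein-coding genes on the 7 chromosome arms, and their windows took in the summits of 19 out of 3401 reproducible peaks. Chromatin immunoprecipitation with sequencing was done on whole prepupae of mixed sex from a MiMIC line of Eip93F, in which an eGFP exon inserted in an intron makes a fusion protein that an anti-GFP antibody pulls down. There was 1 group with 2 biological replicates and no untagged or other comparison group, so every value below describes binding at this single stage, averaged over all tissues of the animal. The animals' age is given as unknown, and the labels do not say how many animals were pooled or whether the replicates came from separate crosses.

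Cells advance through the cell cycle when cyclins activate cyclin-dependent kinases. Cyclin D and cyclin E act before and at the start of DNA replication, cyclins A and B with Cdk1 drive mitosis, and E2F transcription factors switch on the genes of DNA synthesis. The phosphatase String removes inhibitory phosphates from Cdk1, Dacapo inhibits cyclin E with its kinase, and Fizzy-related makes the anaphase-promoting complex destroy mitotic cyclins. Myc sets ribosome production and cell growth. At metamorphosis larval tissues die while imaginal cells form the adult. E93, the DNA-binding product of the ecdysone-induced gene Eip93F, is known for its part in both.

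Of the 10 genes, 8 held at least 1 reproducible summit in their window, against 34.7% of all protein-coding genes by the same rule and 39.3% of the 8618 protein-coding genes whose span lay within the members' range of 1524 to 40568 bp. With the gene span alone 5 of the 10 held a summit, against 9.13% of all and 11.9% of those in the same range of length. E2f1 held 8 summits in its window, CycB, stg, Cdk1 and Myc held 2 each, and CycE, dap and fzr held 1 each. CycA and CycD held none. At least 2 summits were found for 5 of the 10, against 14.0% of protein-coding genes. At least 8 were found for E2f1 alone, against 0.308%. Counting only the 1700 strongest peaks, E2f1 held 2. Only E2f1 and dap had a summit within 500 bp of one of their own transcription start sites (TSSs), 2 of 10 against 12.7% of protein-coding genes. The 10 windows together covered 214503 bp and held 88.6 summits per Mb (exact 95% Poisson interval 53.3 to 138), and 67.1 per Mb (33.5 to 120) without E2f1. The joined windows of all protein-coding genes held 28.8 per Mb. The intervals cover counting error only and take summits as independent, though 8 of the 19 lay in the E2f1 window. They are no test of enrichment.

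**Figure D1:**
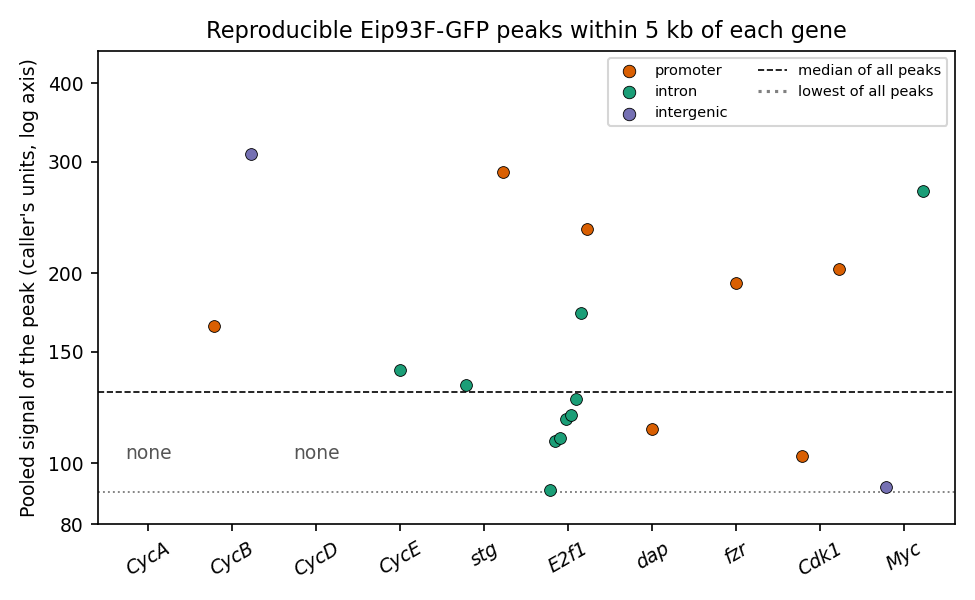
Pooled signal of each of the 19 reproducible peaks (vertical log axis, the peak caller's own units) by gene, coloured by where the summit lies; the dashed line is the median of all 3401 reproducible peaks and the dotted line their lowest value. The strongest peaks of CycB, stg, Myc and E2f1 lie between 234.6 and 308.4, CycA and CycD have none, and 6 of the 8 peaks of E2f1 lie below the median of 129.4.

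The signal is the authors' own value per peak and can be compared only within a list. Over the 19 summits it ran from 90.7 to 308.4 with a median of 133.1, and over all reproducible peaks from 89.8 to 1529 with a median of 129.4. The strongest peak near these genes ranked 245 of 3401, and 4 of the 19 were among the 500 strongest. Of the 19, 10 were in the 1700 strongest. Introns held 10 summits (52.6%; Wilson 95% interval 31.7 to 72.7%), against 39.0% of all reproducible summits, promoters within 500 bp of any annotated TSS held 7 (36.8%; 19.1 to 59.0%), against 47.1%, and 2 were intergenic. These intervals hold the series-wide shares, so at 19 summits no difference in placement was detectable. The 4 peaks ranked under 500 were all narrower than the usual 410 bp, as were 74.6% of the 500 strongest peaks of the series.

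The gene Myc (FBgn0262656) encodes the growth-promoting transcription factor Myc. It spans 3373159 to 3391697 on the forward strand of the X. Its stronger summit lay deep in an intron, 8751 bp past its only TSS. The peak, at 3381847 to 3381983, had a signal of 269.7 (rank 338). Its q, the caller's false discovery rate, was 0.000943. That is the lowest q in the reproducible set, shared by the strongest peaks of CycB, stg and E2f1. The intron is shared with a long non-coding RNA gene, lncRNA:CR44999, which starts at the same base. In the replicates' own lists the entry at this summit had a signal of 184 in replicate 1, rank 231, and of 83.4 in replicate 2, rank 906. It therefore stood relatively higher in replicate 1. The second summit lay 1729 bp upstream of the gene, in intergenic sequence with no other coding gene within 5000 bp. Its signal of 91.7 (rank 3290) was close to the lowest of the set, and its ranks in the replicates were 2857 and 3881. The 101 bp around the intronic summit, chrX:3381860-3381960 on the forward strand of dm6, are shown because they were the only ones of the 19 windows to hold GATAAG, the word that GATA factors recognise. In capitals is its reverse complement, CTTATC, whose centre was 25.5 bp from the summit.
Myc intron: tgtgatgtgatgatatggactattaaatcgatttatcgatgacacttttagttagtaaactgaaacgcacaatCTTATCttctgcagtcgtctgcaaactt

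E2f1 (FBgn0011766) encodes the activating E2F factor of the fly. Its span on 3R, 21620304 to 21660871 on the reverse strand, was the longest of the 10, with 5 TSSs, and the gene held 7 summits in introns, with an eighth 3860 bp past its 3′ end. Protein-coding genes within 20% of its length, 281 in all, held a median of 0 summits, and 6 of them (2.14%) held 8 or more. The strongest summit, with a signal of 234.6 (rank 459; peak 21633000 to 21633170), lay 1 bp upstream of an internal TSS at 21633073 and inside an antisense RNA gene, asRNA:CR46055. Its replicate signals were 139.5 and 90.3, with ranks of 429 and 734. The next in strength, at 21627979 with a signal of 172.9 (rank 908), lay 4714 bp downstream of another internal TSS, at 21632693, and had ranks of 1146 and 1044. These ranks were close in both replicates.

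The other E2f1 summits were weaker, and some were unequal between the replicates. The summit at 21633688, 615 bp upstream of the TSS at 21633073, had a signal of 126.4 and ranked 863 in replicate 1 and 7164 in replicate 2. The summit at 21641664, 3012 bp from the TSS of lncRNA:CR46056 and with a signal of 119.1, ranked 1948 in replicate 1 and 2864 in replicate 2. The pair nearest to the distal TSSs, at 21649742 and 21651336, had signals of 109.4 and 108.2, and the TSS nearest to both was that of lncRNA:CR46057. The former ranked 2042 in replicate 1 and 4791 in replicate 2, and the latter 4445 and 1995. The summit at 21630566 had a signal of 90.7, rank 3354, one of the lowest in the set, with ranks of 4955 and 3615. The summit past the 3′ end, at 21616444, had a signal of 117.4 and lay in an intron of the neighbouring InR, the insulin receptor gene, 704 bp from the TSS of lncRNA:CR44034. It ranked 1106 in replicate 1 with a signal of 89.5, and 19780 in replicate 2 with a signal of 16.2. The entry of replicate 2 was thus weak.

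The bases around 4 E2f1 summits are shown because they differ widely in composition. Their content of G and C ran from 16.8% at 21651336 to 55.4% at 21633688. The strongest E2f1 summit, at 21633074 and not shown, had 60.4%, the highest of the 19. The reproducible summits of the series ran from 5.94% to 68.3%, with a median of 34.7%. Capitals mark GAGAG, the word of the GAGA factor, or its reverse complement CTCTC, and otherwise the summit base. GAGAG was present at 21616444 and 21633688. All are on the forward strand of dm6, at chr3R:21616394-21616494, chr3R:21627929-21628029, chr3R:21633638-21633738 and chr3R:21651286-21651386.
E2f1 3′ flank, in InR: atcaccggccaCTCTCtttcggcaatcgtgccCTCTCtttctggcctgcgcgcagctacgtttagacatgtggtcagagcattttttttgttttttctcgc
E2f1 intron, 21627979: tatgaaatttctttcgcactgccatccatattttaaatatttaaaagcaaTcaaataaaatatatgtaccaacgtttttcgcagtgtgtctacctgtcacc
E2f1 intron, 21633688: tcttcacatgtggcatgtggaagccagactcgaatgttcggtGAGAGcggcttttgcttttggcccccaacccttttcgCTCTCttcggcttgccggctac
E2f1 intron, 21651336: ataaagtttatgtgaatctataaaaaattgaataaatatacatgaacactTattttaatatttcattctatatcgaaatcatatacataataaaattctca

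CycE (FBgn0010382) encodes cyclin E, the cyclin that starts DNA replication. It spans 15727581 to 15748150 on the reverse strand of 2L, with 3 TSSs, and held 1 summit, at 15743790 in an intron, 4360 bp from its 5′ end and 2820 bp downstream of its nearest own TSS. The nearest TSS of any gene, at 2467 bp, was that of lncRNA:CR44974. No other coding gene lay within 5000 bp of it. The peak had a signal of 140.6 (rank 1408; q = 0.00462), just above the median of the series. Its replicate signals were 91.7, rank 1039, and 52.9, rank 2567, so both replicates had it among their 3401 leading entries. Between this summit and the 5′ end lay 4 weaker pooled entries, ranked 4492 to 8440. The sequence around the summit, chr2L:15743740-15743840 on the forward strand of dm6, held none of the words searched, and the summit base is in capitals.
CycE intron: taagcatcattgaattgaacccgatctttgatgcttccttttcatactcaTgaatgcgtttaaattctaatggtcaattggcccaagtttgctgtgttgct

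The gene stg (FBgn0003525) encodes String, the Cdc25 phosphatase that activates Cdk1 at entry into mitosis. It spans 29251826 to 29255800 on the reverse strand of 3R. Its stronger summit lay 518 bp upstream of the gene, in a peak at 29256227 to 29256425 with a signal of 289.4 (rank 283; q = 0.000943). The signals of the replicates were 177.2 and 114.3, with ranks of 256 and 382. The TSS nearest to that summit, at 167 bp, was that of CG45544, which runs the other way, so the peak stands between both genes. The second summit lay in the stg intron, 769 bp from the nearest stg TSS, with a signal of 133.1 (rank 1587), and SP1029 also lay within 5000 bp. Its ranks of 1568 and 1735 were close to each other. The upstream window, chr3R:29256268-29256368 on the forward strand of dm6, is shown because it was the only one of the 19 with CACGTG, the E-box bound by Myc and Max. The word is in capitals, with its centre 7.5 bp from the summit.
stg upstream: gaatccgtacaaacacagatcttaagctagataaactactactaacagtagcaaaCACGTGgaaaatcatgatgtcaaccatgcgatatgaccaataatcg

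**Figure D2:**
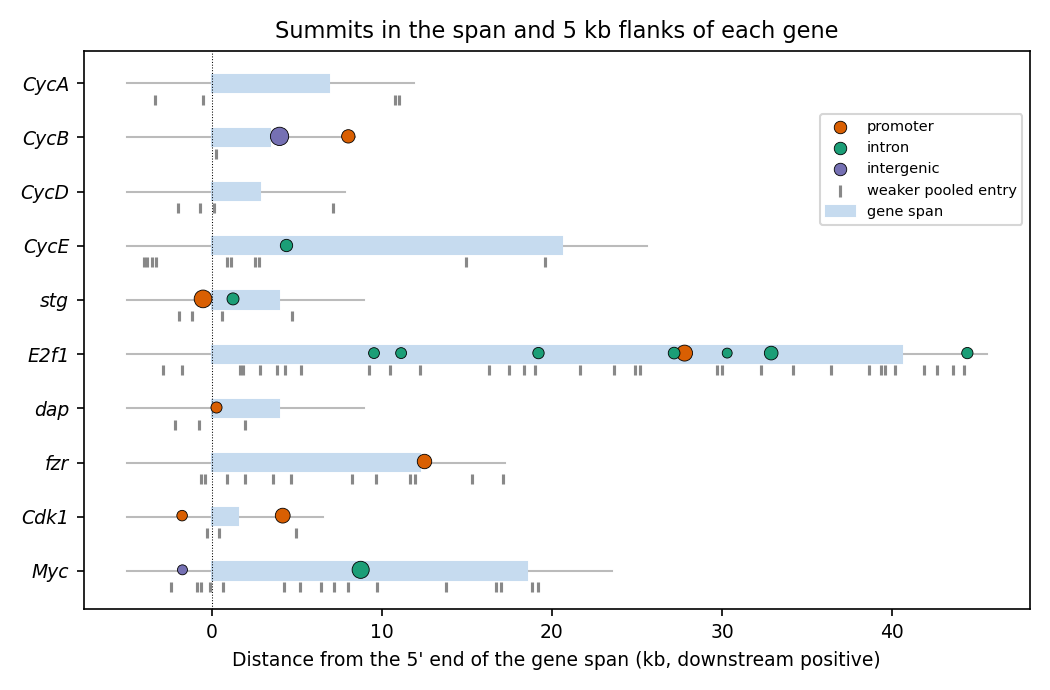
Position of every summit in the span (blue bar) and 5000 bp flanks (grey line) of the 10 genes, as distance in kb from the 5′ end of each gene span; circles are the 19 reproducible summits, with area in proportion to signal and colour for the class, and ticks below are the 89 weaker pooled entries. The 8 E2f1 summits run along its 40568 bp span and flank, whereas those of CycB and fzr lie past the 3′ end.

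Cdk1 (FBgn0004106), the mitotic kinase gene, held both of its summits outside its span of 10384739 to 10386262 on 2L. The stronger, at 10382095 with a signal of 202.7 (rank 647), lay 2644 bp past the 3′ end, within the 3′ UTR of gny and 168 bp from the TSS of CG5096. Its replicate signals were 116.1 and 86.3, with ranks of 629 and 824. The weaker, at 10388011 with a signal of 102.7 (rank 2697), lay 1749 bp upstream of Cdk1 and 94 bp from the TSS of da, which encodes the bHLH factor Daughterless. It ranked 6010 in replicate 1 and 1892 in replicate 2. Neither peak was nearer to the Cdk1 TSS than to that of another gene.

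CycB (FBgn0000405), the cyclin B gene at 22803521 to 22806948 on the reverse strand of 2R, had the strongest peak of the 19, at 22802871 to 22803060, with a signal of 308.4 (rank 245; q = 0.000943). Its summit was 553 bp past the 3′ end and 3335 bp from the nearest CycB TSS, in intergenic sequence. The coding genes CG42260, blw and stl also lay within 5000 bp of that summit. The replicates gave signals of 185.8, rank 223, and 116.4, rank 368. The other summit in the CycB window, with a signal of 164.7 (rank 1015), lay 4597 bp past the 3′ end and 175 bp from the TSS of blw, which encodes the alpha subunit of mitochondrial ATP synthase. CycA (FBgn0000404), the cyclin A gene at 11826719 to 11833578 on 3L, held no reproducible summit. Its best pooled entry, with a signal of 85.9, ranked 3674, just past the threshold of the set, and its replicate ranks of 20027 and 2371 were far apart. That entry lay 11014 bp from the CycA TSS, past the 3′ end. With the leading entries of replicate 2 alone CycA held 1 summit, and with the gene span alone neither CycA nor CycB held any.

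The windows of dap and fzr held 1 summit each, while 34.7% of protein-coding genes held any by the same rule. The gene dap (FBgn0010316), which encodes the inhibitor Dacapo, spans 9712321 to 9716256 on 2R, and its summit lay in the 5′ UTR, 223 bp downstream of its only TSS. The peak had a signal of 113.2 (rank 2250), and its replicate signals of 59.1 and 57.7, with ranks of 2581 and 2123, were nearly equal. The gene fzr (FBgn0262699), which encodes Fizzy-related, spans 4667290 to 4679537 on the reverse strand of the X. Its peak, 128 bp wide at 4666949 to 4667076 with a signal of 192.8 (rank 722), had its summit 242 bp past the 3′ end, 10485 bp from the nearest fzr TSS and 348 bp from that of CG3009. The ranks were 744 and 716. At the fzr 5′ end only weaker entries were found, 405 and 617 bp upstream, ranked 5156 and 5245, and both met the same entry of replicate 1. Another, 56 bp from the internal fzr TSS, ranked 16635 and had an entry in replicate 2 alone.

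CycD (FBgn0010315), which encodes the growth-linked cyclin D and spans 15906822 to 15909676 on the X, held no reproducible summit. Its best pooled entry, 114 bp downstream of its TSS, had a signal of 51.9 and ranked 8187. The replicates placed the entry there at ranks 10140 and 8922. It was thus low in both lists.

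All 19 summits lay in an entry of each replicate's own list, as 98.0% of all reproducible summits did. That set was made from the reads of both replicates, so these shares are descriptions. Among the 3401 leading entries of both replicates were 12 of the 19 (63.2%), against 62.0% of all reproducible peaks. Across the 19 summits Spearman's rho between both replicates' signals was 0.611 and Pearson's r of their log2 values 0.473. Across the 3332 matched peaks of the series these were 0.479 and 0.601. The points of each correlation share the 2 libraries, and they are sites, not samples. With the ratio of replicate 2 to replicate 1 centred on its median over the series, the 19 summits had a median log2 ratio of -0.18 and an SD of 0.72, and the series an SD of 0.65. At 5 of the 19 the ratio was more than 1 SD of the series from 0, against 28.1% of the series, and at 2 more than 2 SDs, against 5.31%.

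The summits beyond 2 SDs were both in the E2f1 window, at 21616444 with a centred log2 ratio of -2.22 and at 21633688 with -1.49. These were also the only summits of the 19 with GAGAG, and their GC content was 50.5% and 55.4%. In the series, the 392 matched peaks with GAGAG had a median centred log2 ratio of 0.12 and those with a GC content of 50% or more one of 0.15, and all other matched peaks in either split one of -0.01. The share of peaks more than 2 SDs lower in replicate 2 was 4.08% with GAGAG and 2.65% without, and 3.77% at a GC content of 50% or more and 2.73% below it. The 3 summits of the 19 with such a GC content, all at E2f1, had a median of -1.49. Among these the summit at 21633074, with the highest GC content, 60.4%, had a ratio of -0.38. The part of base composition or of a library difference in these E2f1 values was not tested.

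**Figure D3:**
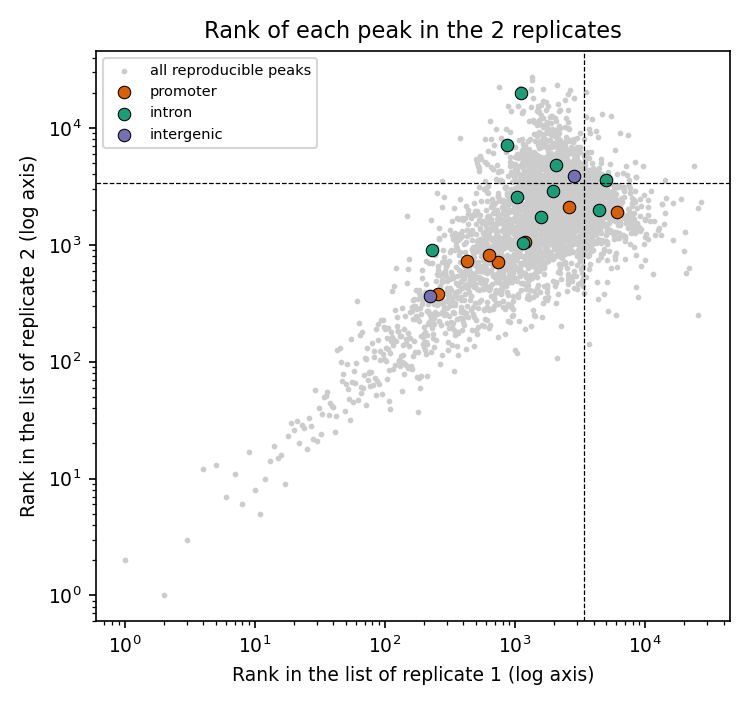
Rank of each reproducible peak in the list of replicate 1 (horizontal log axis) and of replicate 2 (vertical log axis); grey points are the 3332 of 3401 peaks where both lists have an entry at the summit, large points the 19 near cell cycle and growth genes, coloured by class, and dashed lines the rank of 3401. The upper points at ranks 19780 and 7164 in replicate 2 are E2f1 summits, while the CycB summit past the 3′ end has the lowest rank of the 19 in both.

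The pooled list also holds entries below the reproducible threshold, background included. The 10 windows held 89 of them, from a signal of 21.2 to 88.8 with a median of 34.7, at 415 per Mb (exact 95% Poisson interval 333 to 511), against 217 per Mb in the joined windows of all protein-coding genes. By joint density the 10 windows thus also held more weak entries per Mb than those of all protein-coding genes. Counts per gene were uneven, at 32 in E2f1, 16 in Myc, 12 in fzr and 10 in CycE. CycA, CycD and stg held 4 each, dap and Cdk1 3 each, and CycB 1. Density was not compared window by window, so the excess is not shown for each gene. The interval takes entries as independent, though the fzr entries ranked 5156 and 5245 met the same entry of replicate 1. An entry of both replicates was found at 45 of the 89. Just inside the threshold lay Myc at a signal of 91.7 (rank 3290) and E2f1 at 90.7 (rank 3354). Just outside lay Myc, 8001 bp into the gene, at 88.8 (rank 3474), Cdk1, 258 bp upstream of its TSS, at 88.7 (rank 3482), and E2f1, past its 3′ end, at 88.2 (rank 3510). The Cdk1 entry ranked 6800 in replicate 1 and 2518 in replicate 2, so the entry at the Cdk1 promoter was unequal between the replicates.

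**Figure D4:**
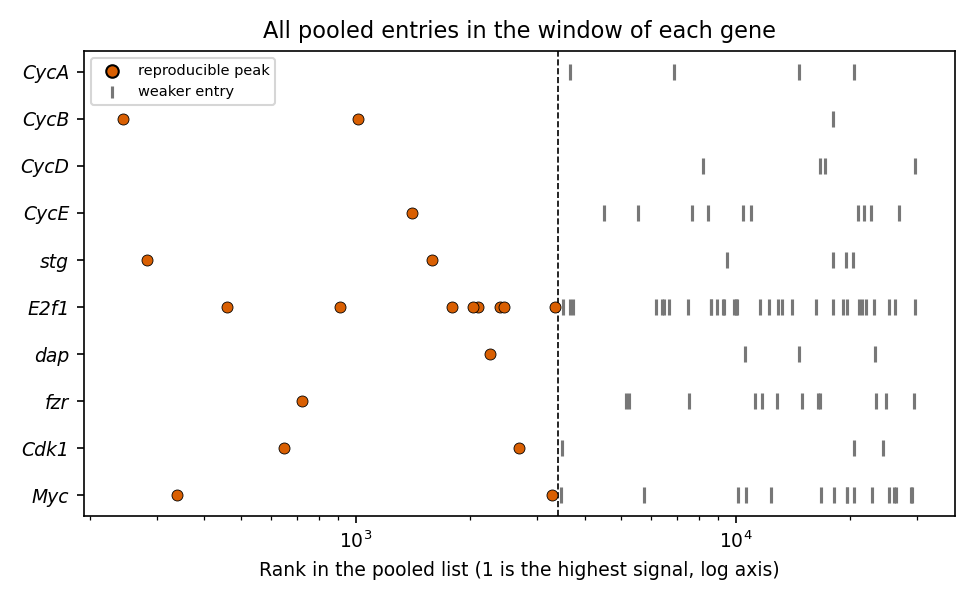
Rank of every pooled entry in the window of each gene (horizontal log axis, 1 being the highest signal); circles are reproducible peaks, ticks are weaker entries, and the dashed line is the last rank of the reproducible set, 3401. CycA begins just past the line at 3674 and CycD at 8187, while Myc, Cdk1 and E2f1 have entries just outside it.

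Preset words of DNA-binding factors were counted within 50 bp of each summit, on both strands. GATAAG was found at 1 of 19 summits (341 of all 3401 reproducible summits), GAGAG at 2 (11.9%) and CACGTG at 1 (1.00%). TATCGATA, the DNA replication-related element bound by DREF, was found at 0 of 19, and at 0.647% of all. A count of 0 of 19 allows a share of up to 15.8%. The E2F words TTTCGCGC, TTTGGCGC, TTTCCCGC and TTTGCCGC, counted jointly, and AGGTCA, the core word of nuclear receptors, were also found at 0 of 19, and at 1.59% and 1.71% of all. A match is only the presence of these letters, and 19 windows are too few to show a share apart from that of the series.

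Among 71 other genes of the cell cycle and growth, 35 (49.3%) held a reproducible summit by the same rule, beside the 34.7% of all protein-coding genes. Of the 10 Hippo pathway genes in that list 7 did, and of the other 61 genes 28. The strongest summits were near tefu, the fly ATM kinase gene (signal 492.1), CycG (400.4), lin-52, which encodes a subunit of a repressor complex that contains E2F (321.6), E2f2, the gene of the repressing E2F (317.5), SkpA, a ubiquitin ligase subunit gene (313.1), ex of the Hippo pathway (279.7), Orc1 of the origin recognition complex (278.2) and Mnt (244.4). For tefu, CycG, lin-52, E2f2, SkpA and Orc1 the TSS nearest to that summit belonged to another gene. Mnt, which encodes the repressor that shares the partner Max with Myc, held 9 summits. With the gene span alone, 12 of the 71 genes held any, against 9.13% of protein-coding genes.

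Direct partners of the 10 genes were looked up after these values were seen, outside the rule for naming genes. Max held 2 summits, the stronger 90 bp from its TSS with a signal of 155.0. Dp, the partner of both E2F factors, held 3, the strongest with a signal of 147.0, outside the gene, 5098 bp from its TSS and nearest to that of fsd. Cdk2 and Cdk4, the kinases of cyclins E and D, and Rbf, the retinoblastoma homologue that restrains E2f1, held none, which is the more common state, since 34.7% of protein-coding genes held any.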

How the data were processed

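Eip93F-GFP chromatin immunoprecipitation was measured in 2 biological replicates of 1 group, with chromatin sonicated to 200 to 800 bp, per the labels. Per the notes deposited with the files, the authors called peaks on each replicate and on both together, against a control alignment, and derived the reproducible set by the irreproducible discovery rate. The deposited lists give a signal per peak, the caller's own value, and a −log10 q per peak, both valid within a list. The sources used here name no aligner, caller or version, and no read counts came with the lists, so depth is unknown and intervals cover counting error only. The dm3 lists were not used.

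All 3401 reproducible peaks were found in the pooled list, and each of the other 26599 pooled entries had a lower signal. The replicate lists shared no entry of equal position and signal. Summits were placed on Ensembl release 115 without transposable elements (Python 3.11.15, pandas 2.3.3, SciPy 1.17.1). Spans of all 10 genes were equal in the RefSeq annotation, from whose genome sequences were read. A replicate entry matched a summit it contained. The windows, gene spans, strictness of the peak set, matching rule, TSS set and word window were varied. Functions were tested on simulated data. Named genes were the 10, genes of the nearest TSS at their summits and others around these (not all printed), and the 8 other genes with the strongest summits. Members and lists were chosen with earlier results of these data known, so no chance test was made.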

Additional observations from a re-analysis of the deposited data

How the results depend on the processing

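With the gene span alone, 5 of the 10 genes held 11 summits and 12 of the 71 other genes held any, against 9.13% of protein-coding genes. With 1000 bp flanks 7 of the 10 and 23 of the others did, against 19.9%. With the 1700 strongest peaks 7 of the 10 held 10 summits and 21 of the others any, against 21.5%. Without the E2f1 window, a choice made after seeing the data, 11 summits were left. Counting only summits inside a member or nearest to its TSS, also chosen later, left 13 summits in 6 genes, without Cdk1 and fzr, against 14.9% of protein-coding genes. With the leading entries of replicate 1 or replicate 2 alone, 8 and 9 genes held 18 summits each, against 35.3% and 34.9% of protein-coding genes with any. Among protein-coding genes with a span in the members' range, the share was 11.9% with the gene span alone and 24.2% with 1000 bp flanks. It was 24.4% with the 1700 strongest peaks and 18.3% with only summits inside the gene or nearest to its TSS. For replicates 1 and 2 alone it was 39.8% and 39.6%. CycA gained 1 summit with replicate 2 alone, Cdk1 fell to 1 with replicate 1 alone, and Myc to 1 with replicate 2 alone. E2f1 fell from 8 to 6 with either replicate alone. With the 1700 strongest peaks E2f1 fell to 2, Cdk1 and Myc to 1 each, and dap to 0. Matching in the leading entries of both replicates left 12 of 19 summits, and TSSs of the 10 genes alone left 2 promoter summits. Of the weaker entries, 28 ranked in the leading 10000 and 45 had an entry in both replicates. GATAAG was at 0 summits within 25 bp and at 3 within 100 bp. The other 34 of 47 alternatives of these overall results stayed within 1.5 times for counts, or within the spread between replicates for the log2 ratio, and of 83 for single genes 64 did.

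With 19 summits and 2 replicates, shares carry wide intervals. No untagged control was analysed here, so signal not due to Eip93F was not measured. A summit near a gene does not say which gene it acts on.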
